A study of Rattus norvegicus with 64 samples.

Results

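Trpc1, Trpc4, Trpc5, Trpc6, Trpm2 and Trpm4 encode 6 pore-forming subunits of the transient receptor potential (TRP) superfamily. They were chosen by name, as TRPC and TRPM channels linked to persistent firing of entorhinal neurons, with earlier results of these data known. They are 6 of the 17260 genes counted in the series. All 6 passed the filter on low counts, which kept 12521 genes. Long Evans rats were taken on postnatal day 2, 9, 23 or 45 (P2, P9, P23, P45). Layer II (LII) and the deep layers (LDeep, layers III to VI together) were dissected from both divisions of their entorhinal cortex, medial (MEC) and lateral (LEC), and the RNA was sequenced as 64 libraries. Each combination of region and layer had 5 libraries from P2 animals, 4 from P9, 3 from P23 and 4 from P45 animals, giving 16 groups. The labels give no treatment, genotype or transgene, and they tell the groups apart by age, region and layer. A replicate number within an age was read as 1 animal, which gives 16 animals with 4 libraries each.

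TRPC channels open downstream of receptors that couple through Gq to phospholipase C, and some also respond to the filling state of the calcium stores. Trpc1 acts mostly as a partner in mixed channels, Trpc4 and Trpc5 form a closely related pair, and Trpc6 is opened directly by diacylglycerol. Trpm2 is a calcium-permeable channel gated by ADP-ribose, and Trpm4 is opened by intracellular calcium but passes monovalent cations rather than calcium. In entorhinal neurons a calcium-activated nonspecific cation current recruited by muscarinic receptors underlies persistent firing, and channels of these families are the candidates for carrying it.

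Promoter sequence is shown for Trpc5 and Trpc6, because Trpc5 had the largest difference between regions, Trpc6 differed by region, layer and age, and their table window ends at the outer start of the gene. The 250 bases before the annotated start were copied from RefSeq on build GRCr8, a different build from the Rn6 annotation behind the counts, 5′ to 3′ on the gene's own strand. Capitals mark the motif match in each window.
Trpc5, chrX:113027639-113027888, minus strand: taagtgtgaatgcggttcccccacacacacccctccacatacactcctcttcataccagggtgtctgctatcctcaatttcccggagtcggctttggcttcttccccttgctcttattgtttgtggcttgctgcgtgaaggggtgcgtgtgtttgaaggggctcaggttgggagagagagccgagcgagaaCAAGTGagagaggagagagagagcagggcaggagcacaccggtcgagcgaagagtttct
Trpc6, chr8:14043966-14044215, plus strand: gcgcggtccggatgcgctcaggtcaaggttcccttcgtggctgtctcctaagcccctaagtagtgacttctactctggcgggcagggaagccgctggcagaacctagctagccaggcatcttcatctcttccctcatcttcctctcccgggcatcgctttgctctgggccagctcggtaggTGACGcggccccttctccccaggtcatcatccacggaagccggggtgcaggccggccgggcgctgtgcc
5 motifs were searched on both strands, and no match overlaps another in these windows. The Trpc5 window held 1 match, an E-box with the letters CANNTG, whose first base lies 59 bases before the start. An E-box was found in 65.5% of the 33469 windows of the same length in the table. The Trpc6 window held 1 match, the core of the cAMP response element, TGACG, which begins 69 bases before the start and which 18.2% of all windows held. Neither window held a TATA box spelled TATAAA, found in 12.9% of all windows. Neither held the letters CCAAT of a further common promoter element, found in 34% of all windows. The GC box, searched as GGGCGG and found in 30.5% of all windows, was also in neither. GC content was 55.2% in the Trpc5 window and 64.4% in the Trpc6 window, against a median of 51.2% over all windows. These matches describe the letters only, and the libraries measured no binding or chromatin.

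On the Rn6 annotation Trpc1 lies on chromosome 8 from 103503983 to 103554381 on the minus strand and has 13 exons. Trpc6 shares that chromosome, from 6811543 to 6917534 on the plus strand, also with 13 exons. Trpc4 (10 exons) is a plus-strand gene of chromosome 2 between 143475323 and 143604972, and Trpc5 (11 exons) a minus-strand gene of chromosome X between 115627852 and 115764217. Trpm2 (32 exons) is a plus-strand gene of chromosome 20 between 11436298 and 11482051, and Trpm4 (25 exons) a minus-strand gene of chromosome 1 between 101293300 and 101323187. No other gene of the table overlapped the exons of any of the 6, so the counts below are those of the exons of each channel gene.

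Total counts ran from 3894334 to 11439143 per library with a median of 7569158, so 1 read was worth 0.0895 to 0.253 CPM, the count per 1000000 reads of the TMM-normalised library total in which levels are given below. Some libraries went against their labels. The library labelled MEC LII P2 replicate 1 had 29.8 CPM over the 10 genes of a meningeal fibroblast list, where the median of the MEC LII libraries was 1021 CPM, and it held 433 CPM of Zic1 and 242 CPM of Zic4. Replicate 3 of the same group had a similarly low meningeal sum, 48.3 CPM. The library labelled MEC LDeep P2 replicate 1 had 1133 CPM of the meningeal list against a median of 158 for MEC LDeep, 717 CPM of the layer II marker Reln, and the lowest sum of the deep layer list in its region and layer (465 CPM). The results that rest on the 2 libraries of replicate 1, called the doubted libraries below, are given with and without them. Without these 2 and the 3 next farthest from their group means (MEC LII P2 replicate 3, MEC LDeep P2 replicate 4 and LEC LDeep P45 replicate 4), the calls of the 6 genes between regions in LII, between layers in LEC and in the layer by region test did not change, and Trpm2 was called in addition between layers in MEC (LFC 0.34, adjusted p = 0.00199, edgeR). As a check of the dissection, 8 of 8 deep layer markers were lower in LII than in LDeep in MEC and 7 of 8 in LEC, over all ages. At P2 alone 5 of 8 were called lower in MEC and 3 of 8 in LEC. Of 4 layer II neuron markers, 1 was called higher in LII in MEC at P2 and 2 in LEC. In bulk tissue, fewer cells of a type and less RNA per cell cannot be told apart, and this holds for every difference below.

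All 6 channel genes were detected in every library. Per length of exon (RPKM, the CPM divided by the exon length in kilobases), Trpc5 had the highest median level over the 64 libraries at 22.2 RPKM, followed by Trpc1 at 15.4 and Trpc4 at 11.6. Trpm2 and Trpc6 had medians of 6.12 and 6.07 RPKM, and Trpm4 was lowest at 5.14. As the ratio of the highest to the lowest library, the spread was widest for Trpc6, from 6.08 to 88.6 CPM, and narrowest for Trpc1, from 33.3 to 84.1 CPM. When the 16 groups were put in order of mean level, all 15 pairs of neighbours overlapped in their libraries for Trpc1, Trpc5 and Trpm2. For Trpc4 and Trpm4 14 of 15 neighbouring pairs overlapped, and for Trpc6 12 of 15.

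**Figure D1:**
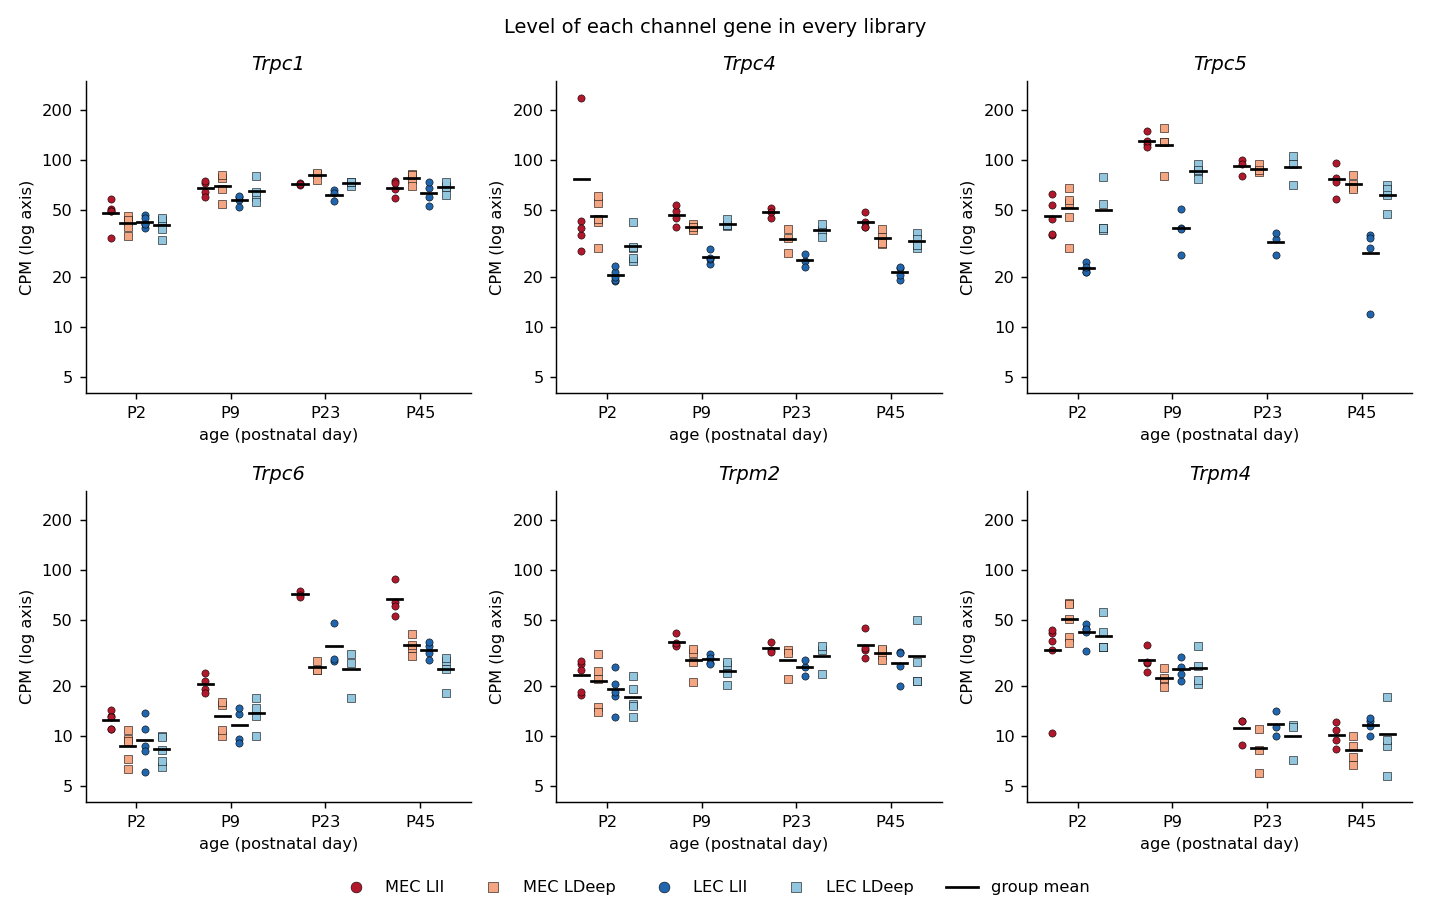
Level of each of the 6 genes in every library (CPM, log axis), grouped by age on the horizontal axis, with region and layer as separate point series and the group mean marked. Trpc6 runs from 6.08 to 88.6 CPM with its highest values in MEC LII at P23 and P45, Trpm4 falls from P2 to P45, and 1 library of MEC LII at P2 stands at 239 CPM for Trpc4.

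The comparison of MEC with LEC within LII asked whether the same layer differs between the 2 regions. Trpc5, Trpc4 and Trpc6 were 2.72-fold, 2.27-fold and 1.75-fold higher in MEC LII than in LEC LII, and smaller differences in the same direction were called for Trpm2 and Trpc1. With 5 of the 6 genes called higher and none lower, the group had a median log2 fold change (LFC) of 0.58. Over all tested genes 12.6% were called in this comparison and the median LFC was 0.01. The test was edgeR's quasi-likelihood test with BH adjustment over all 12521 genes and a threshold of 0.05.

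Trpc5 forms channels alone or together with Trpc1 or Trpc4. At P2 its levels were 62.5, 35.4, 36.1, 53.8 and 44.6 CPM in MEC LII and 22.2, 24.5, 21.2, 21.4 and 22.7 CPM in LEC LII. At P9 they were 125, 120, 150 and 131 CPM in MEC LII and 27.0, 39.3, 51.1 and 38.5 CPM in LEC LII. Every MEC library at these ages was above every LEC library of the same age. At P23 the values were 99.9, 95.4 and 80.8 CPM against 33.5, 36.4 and 26.8 CPM. At P45 they were 78.9, 74.1, 58.4 and 96.6 CPM against 11.9, 35.5, 34.0 and 29.5 CPM. The groups did not overlap at any age, and the MEC library was higher in 16 of 16 animals. The LFC was 1.44 ± 0.12 (SE) with an adjusted p of 8.26e-14 in edgeR's quasi-likelihood test.

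Trpc4, the closest relative of Trpc5, showed the same order of regions. Over the 16 LEC LII libraries it ran from 18.9 to 29.3 CPM with a median of 22.8. In MEC LII it was 239, 35.6, 28.5, 43.2 and 39.0 CPM at P2 and 39.996, 49.9, 44.8 and 54.1 CPM at P9. At P23 it was 51.9, 45.3 and 48.7 CPM, and at P45 39.8, 42.4, 39.6 and 49.0 CPM. Apart from replicate 3 at P2, at 28.5 CPM, each MEC LII library was above the LEC maximum, and within animals MEC was higher in 16 of 16. The LFC was 1.18 ± 0.16 (SE, adjusted p = 2.41e-07, edgeR). Without the 2 doubted libraries of P2 replicate 1 it was 0.90, with an adjusted p of 1.29e-13 in edgeR's test.

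Trpc6 overlapped between regions at P2 but not at the later ages. At P2 it was 11.1, 13.2, 14.4, 13.1 and 11.04 CPM in MEC LII and 13.9, 8.68, 6.08, 11.003 and 8.10 CPM in LEC LII, and these ranges overlapped. At P9 it was 21.5, 19.3, 24.0 and 18.1 CPM against 9.59, 13.5, 9.14 and 14.8 CPM. Here each MEC library was above each LEC library, as also at P23 and P45. At P23 the values were 74.4, 70.8 and 68.8 CPM against 28.5, 47.6 and 29.0 CPM. At P45 they were 63.9, 60.7, 52.5 and 88.6 CPM against 34.9, 31.8, 36.9 and 28.7 CPM. Across ages the LFC was 0.81 ± 0.10 (SE, adjusted p = 3.56e-08, edgeR), and MEC was higher in 15 of 16 animals. The change of this regional difference with age in LII was tested as an interaction. In it edgeR called 2.16% of all genes and none of the 6 channel genes. Trpc6 had an unadjusted p of 0.0495 in that test, where 12.9% of all genes were under 0.05.

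**Figure D2:**
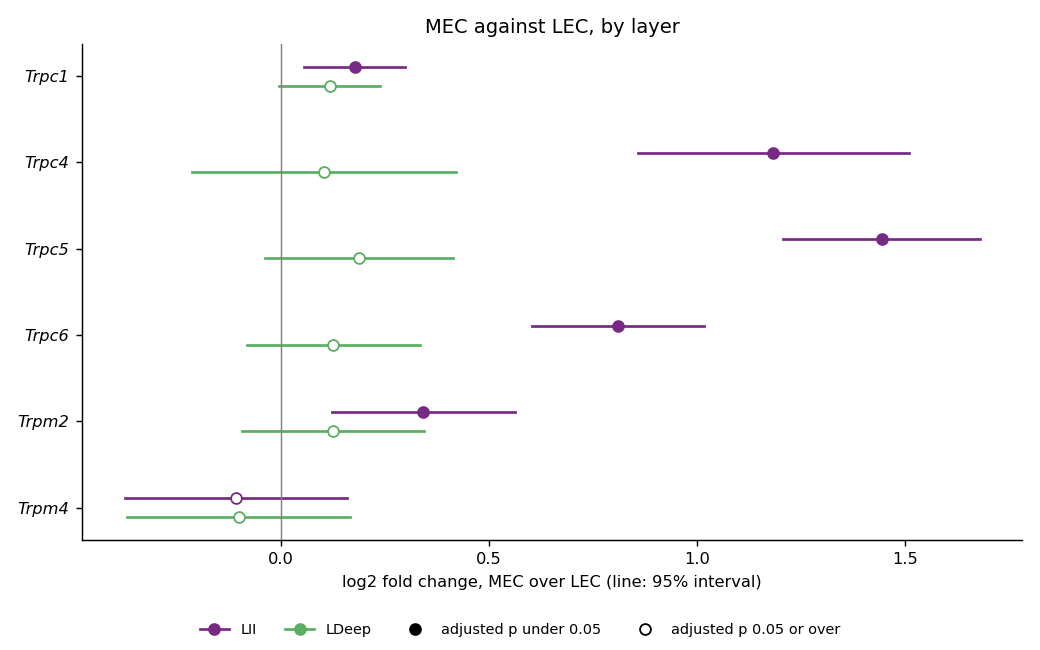
Log2 fold change of MEC over LEC for each of the 6 genes in LII and in LDeep, with lines for the 95% interval of the fit to 64 libraries and filled points for an adjusted p under 0.05. The LII estimates of Trpc5, Trpc4 and Trpc6 (1.44, 1.18 and 0.81) lie to the right of their LDeep intervals, and all 6 LDeep estimates lie between -0.10 and 0.19.

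The remaining genes differed less between the regions in LII. Trpm2 had a median of 33.0 CPM in MEC LII and 26.4 CPM in LEC LII, with overlapping ranges of 17.6 to 44.9 and 13.0 to 32.2 CPM. Its LFC was 0.34 ± 0.11 (SE, adjusted p = 0.0292, edgeR), it was higher in MEC in 13 of 16 animals, and the call was lost in 8 of 26 alternative analyses. Trpc1 had medians of 66.1 and 57.4 CPM, an LFC of 0.18 ± 0.06 and an adjusted p of 0.0443 in the same test, and its call was lost in 20 of 26 alternatives, including the one without the 2 doubted libraries (LFC 0.14, adjusted p = 0.123). Neither of these 2 calls is firm at this depth and sample number. Trpm4 had an LFC of -0.11 with a 95% interval from -0.38 to 0.16.

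Marker lists also differed between regions in LII. Of 9 general neuronal markers 3 were higher in MEC LII and none lower, of 4 layer II neuron markers 2 were higher, and of 8 deep layer markers 3 were lower. The summed neuronal list ran from 3158 to 7549 CPM in MEC LII and from 2701 to 7494 CPM in LEC LII. Of 8 myelin genes 3 were higher in MEC LII, of 5 oligodendrocyte precursor genes 2 were higher (median LFC 0.33), and of 12 microglial genes 1 was lower. Of 4 tested genes of neighbouring hippocampal and subicular tissue 1 was higher and 1 lower (median LFC 0.56), at summed levels of 6.45 to 38.9 CPM in MEC LII and 6.06 to 27.96 CPM in LEC LII. The part of these markers in the channel differences was not tested.

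In LDeep the same regional comparison called none of the 6 channel genes, against 5.78% of all genes. Trpc5 had medians of 76.3 CPM in MEC LDeep and 71.1 CPM in LEC LDeep, with an LFC of 0.19 and a 95% interval from -0.04 to 0.41. Trpc4 had medians of 38.7 and 35.8 CPM, with an LFC of 0.10 and an interval from -0.21 to 0.42. Trpc6 had medians of 15.8 CPM in both, an LFC of 0.13 and an interval from -0.08 to 0.33. Each of these intervals lies below the estimate for the same gene in LII. At an unadjusted p under 0.05, 16.8% of all genes and none of the 6 channel genes passed, and the call count was 0 of 6 in each of the other 26 analyses, among them DESeq2 and limma voom. The regional difference in LDeep was also tested for a change with age, where edgeR called 0.575% of all genes and none of the 6. None of the 6 had an unadjusted p under 0.05, against 11.6% of all genes.

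The comparison of LII with LDeep asked how the channels are laid out across layers in each region. In MEC, Trpc6 was 1.85-fold and Trpc4 1.38-fold higher in LII than in LDeep. In LEC the 2 genes that differed, Trpc5 and Trpc4, were lower in LII, at 0.425 and 0.651 of the LDeep level. Calls were made for 40.8% of all genes in MEC and 38.6% in LEC, so 2 of 6 channel genes in each region is near the background share.

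In MEC, Trpc6 in LDeep was 10.8, 9.58, 7.28, 6.31 and 9.38 CPM at P2 and 10.004, 15.5, 16.2 and 10.9 CPM at P9. It was 25.1, 28.2 and 24.96 CPM at P23 and 33.8, 35.3, 30.3 and 41.1 CPM at P45. Against the MEC LII values above, the layers did not overlap at any age, and LII was higher in 16 of 16 animals. The LFC over ages was 0.89 ± 0.10 (SE, adjusted p = 4.81e-10, edgeR). By single age it was 0.52 at P2 (adjusted p = 0.0754; 0.67 and 0.0283 without the 2 doubted libraries), 0.66 at P9 (adjusted p = 0.0191), 1.45 at P23 (adjusted p = 5.19e-06) and 0.92 at P45 (adjusted p = 0.000476). The P9 call was lost when either P9 replicate 1 or P9 replicate 4 was left out. Trpc6 was the single channel gene called in MEC at P9, P23 and P45, where 17.7%, 16.5% and 14.8% of all genes were called. At P2 9.23% of all genes and none of the 6 were called by edgeR, while 3 of the 6 (Trpm4, Trpc4 and Trpc6) and 25.8% of all genes had an unadjusted p under 0.05, and limma voom called Trpm4.

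Trpc4 in MEC had an LFC of 0.46 ± 0.16 (SE, adjusted p = 0.0155, edgeR) for LII against LDeep and was higher in LII in 12 of 16 animals. In LDeep it ran from 27.6 to 60.7 CPM with a median of 38.7, which overlaps the LII range. Without the 2 doubted libraries the LFC was 0.23 with an adjusted p of 0.00765, and at P2 it went from 0.74 to -0.24, neither of them called. The call was lost without P23 replicate 3 and when the fit used the MEC libraries alone (adjusted p = 0.0804). Trpm2 in MEC was higher in LII in 14 of 16 animals with an LFC of 0.23 and an adjusted p of 0.0838, and with the animal as a replicate block it was called (LFC 0.23, adjusted p = 0.0376). Trpm4 at P2 had an LFC of -0.61 (adjusted p = 0.0661) in MEC, which the replicate block turned into a call (LFC -0.67, adjusted p = 0.0133). Its MEC LII values at P2 were 10.4, 37.4, 33.0, 41.6 and 43.4 CPM against 39.2, 36.5, 63.6, 62.7 and 50.4 CPM in LDeep, and the lowest of them is the doubted library. With that library and its LDeep partner left out, the block no longer called Trpm4 at P2.

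Trpc5 in LEC was the channel with the largest difference between layers. Its LEC LDeep levels were 39.2, 79.9, 38.0, 54.5 and 39.2 CPM at P2 and 85.5, 77.0, 94.7 and 87.8 CPM at P9. They were 71.2, 95.5 and 107 CPM at P23 and 47.7, 71.0, 67.5 and 61.8 CPM at P45. All were above the LEC LII libraries of the same age, and LII was lower in 16 of 16 animals. The LFC was -1.24 ± 0.12 (SE, adjusted p = 1.61e-12, edgeR), and Trpc5 was the single channel gene called at each age in LEC. From the youngest to the oldest age its LFC was -1.16, -1.14, -1.50 and -1.15, beside calls for 12.1%, 15.5%, 11.3% and 13.3% of all genes.

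Trpc4 in LEC was also lower in LII in 16 of 16 animals, with LDeep levels from 24.95 to 44.5 CPM and a median of 35.8. The LFC was -0.62 ± 0.16 (SE, adjusted p = 0.00173, edgeR). At single ages its LFC lay between -0.66 and -0.58 without a call. When the 2 doubted MEC libraries were left out of the shared estimate of spread, Trpc4 was called in LEC at all 4 ages. In MEC, by contrast, Trpc5 was near the same level in both layers, with an LFC of 0.02, a 95% interval from -0.21 to 0.24 and LII higher in 8 of 16 animals. Trpc6 in LEC had an LFC of 0.20 with an interval from -0.01 to 0.41.

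LII libraries also held more RNA of the vessel and meningeal lists than LDeep libraries. All 6 endothelial markers were higher in LII in both regions, 8 of 8 pericyte and smooth muscle markers were higher in MEC and 7 of 8 in LEC, and 9 of 10 meningeal markers were higher in each region. The meningeal sum ran from 29.8 to 1666 CPM in MEC LII, from 52.4 to 1133 CPM in MEC LDeep, from 757 to 1615 CPM in LEC LII and from 30.2 to 260 CPM in LEC LDeep. Of 7 astrocyte markers 6 were higher in MEC LII and 5 in LEC LII, and 6 and 5 of 8 myelin genes were lower. Of 12 microglial markers 7 were higher in MEC LII and 6 in LEC LII. Choroid plexus and ependyma genes were higher for 4 of 4 tested in MEC LII and for 1 of 4 in LEC LII. Among 5 oligodendrocyte precursor genes 1 was higher and 3 were lower in LII in each region. Of 4 layer II neuron markers 4 were higher in MEC LII and 3 in LEC LII, while of 9 general neuronal markers 3 were higher and 2 lower in MEC LII and 1 was higher and 4 lower in LEC LII. The part of these cells in the layer differences of the channels was not tested.

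**Figure D3:**
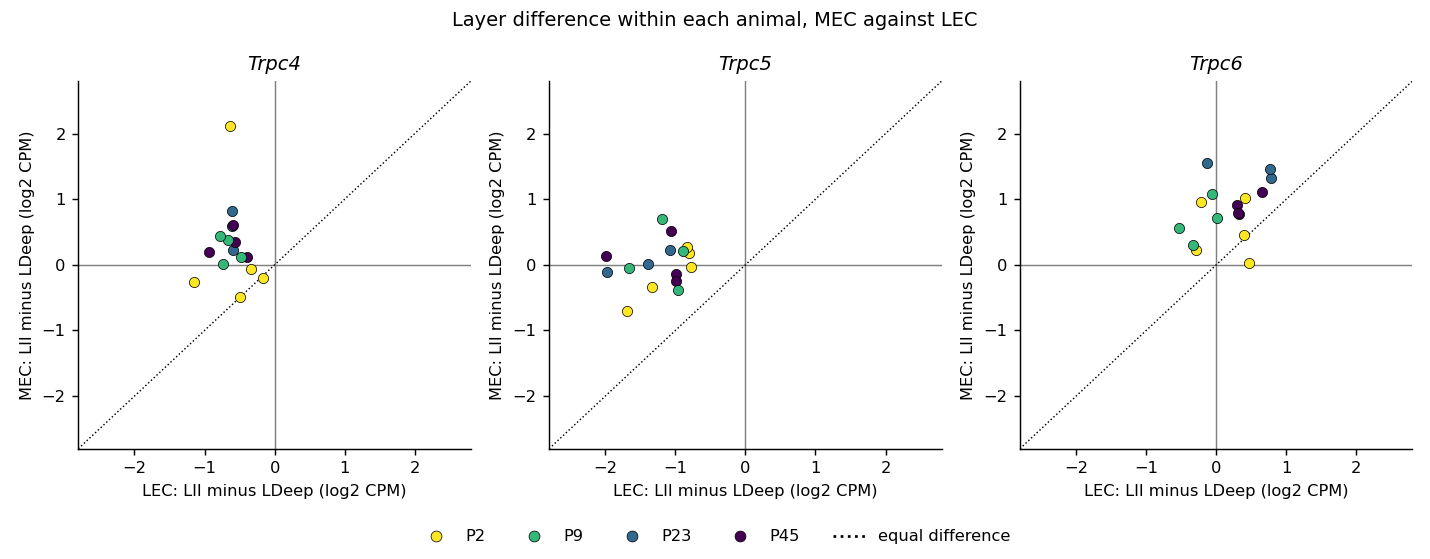
Difference in log2 CPM between LII and LDeep of the same animal for Trpc4, Trpc5 and Trpc6, 1 point per animal (16 animals, coloured by age), with LEC on the horizontal and MEC on the vertical axis and a dotted line where both are equal. All 16 animals lie left of 0 in LEC for Trpc4 and Trpc5, all 16 lie above 0 in MEC for Trpc6, and 15, 16 and 15 animals lie above the dotted line for Trpc4, Trpc5 and Trpc6.

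The difference between those layer contrasts was tested itself, as the LII against LDeep LFC in MEC less that in LEC. It was called for Trpc5, Trpc4 and Trpc6, 3 of 6 channel genes, where 1.25% of all genes were called. Trpc5 had a difference of 1.26 ± 0.16 (SE, adjusted p = 1.32e-06, edgeR), from layer LFCs of 0.02 in MEC and -1.24 in LEC. The signed value of LII less LDeep was higher in MEC in 16 of 16 animals. Trpc4 had 1.08 ± 0.23 (adjusted p = 0.00405), and without the 2 doubted libraries 0.81 (adjusted p = 6.45e-07), in both cases in edgeR's test. Trpc6 had 0.68 ± 0.15 (adjusted p = 0.00491, edgeR). For both Trpc6 and Trpc4 the signed value was higher in MEC in 15 of 16 animals. The Trpc6 call was lost without P23 replicate 1 (0.59, adjusted p = 0.0573). Trpc1, Trpm2 and Trpm4 had differences of 0.06, 0.22 and -0.01 that were not called. Among the marker lists, 2 of 4 layer II neuron markers had a called positive difference in this test (median LFC 0.56). A called negative difference was found for 2 of 8 deep layer markers (median LFC -0.26), and no gene of the other lists was called. Whether these markers bear on the channel differences was not tested. The layer and region comparisons share the same 64 libraries, so they are different readings of the same values and not separate evidence.

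The interaction of layer and age was called for 5.26% of all genes in MEC and 2.23% in LEC, and for none of the 6 channel genes in either by edgeR. Unadjusted p values under 0.05 were found for Trpc6 and Trpc1 in MEC and for Trpc6 in LEC, beside 17.4% and 12.3% of all genes. For Trpc6 in MEC the within-animal difference averaged 0.54 ± 0.44 log2 CPM (SD, n = 5 animals) at P2, 0.67 ± 0.32 (n = 4) at P9, 1.44 ± 0.12 (n = 3) at P23 and 0.89 ± 0.15 (n = 4) at P45. The change for Trpc6 was called by limma voom (0.69, adjusted p = 0.0169) and in the fit to the MEC libraries alone (0.60, adjusted p = 0.0430), so this call depends on the model.

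The age comparison summed the 4 libraries of each animal. Trpc6 rose 3.24-fold from the younger animals (P2 and P9) to the older ones (P23 and P45), and Trpm4 fell to 0.308 of its younger level. Trpc1 and Trpm2 rose by smaller amounts, Trpc5 was highest at P9, and Trpc4 was not called. With 3 called higher and 1 lower, the 6 genes are near the share of all genes called, 78.6%.

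Trpc6 was lowest at P2, where the animals ran from 9.34 to 11.2 CPM, and reached 12.4 to 16.5 CPM at P9. At P23 the 3 animals were at 35.2, 39.9 and 42.1 CPM, and the P45 animals ran from 36.6 to 43.4 CPM. Young and old animals did not overlap. The LFC of older against younger animals was 1.70 ± 0.07 (SE, adjusted p = 1.63e-12, edgeR). Most of the rise lay between P9 and P23, with an LFC of 1.41, after one of 0.56 from P2 to P9.

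Trpm4, the calcium-activated monovalent channel, took the opposite course. Animals ran from 27.6 to 45.2 CPM at P2 and from 23.3 to 31.0 CPM at P9. The 27.6 CPM is that of P2 animal 1, whose sum holds the 2 doubted libraries, and the other P2 animals lay between 43.6 and 45.2 CPM. Levels then fell to 8.93, 9.38 and 12.2 CPM at P23 and lay between 8.57 and 12.6 CPM at P45. Older animals were all below younger ones, with an LFC of -1.70 ± 0.12 (SE, adjusted p = 2.33e-09, edgeR). The step from P2 to P9 was -0.68 and the step from P9 to P23 -1.33, and both were called. Over 23 alternatives the first step ran from -0.80 to -0.64 and stayed called.

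Trpc1 rose from 35.4 to 47.9 CPM at P2 to 56.0 to 71.1 CPM at P9 and stayed between 67.7 and 73.7 CPM at P45. Trpm2 rose from 15.1 to 23.5 CPM at P2 to 27.5 to 31.9 CPM at P9 and was at 27.5 to 37.5 CPM at P45. For both the change lay in the first step, with LFCs of 0.59 and 0.53, and the older against younger LFCs were 0.41 and 0.30. Trpc5 rose from 32.6 to 53.9 CPM at P2 to 87.7 to 107 CPM at P9, an LFC of 1.12, and then lay at 73.5 to 81.3 CPM at P23 and 56.6 to 69.1 CPM at P45. Its older against younger LFC was 0.08 with a 95% interval from -0.10 to 0.26, and the levels of the older animals lay between those of P2 and P9.

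Trpc4 ran from 26.6 to 97.5 CPM at P2, from 36.8 to 42.1 at P9, from 33.8 to 37.9 at P23 and from 31.1 to 34.9 at P45. Its step from P2 to P9 was -0.25 and not called, and without the 2 doubted libraries in the sum of P2 animal 1 it was 0.28 with an adjusted p of 0.0257 (edgeR). The direction of this Trpc4 step therefore rests on 1 animal.

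Among the steps, P9 against P2 called 4 channel genes up (Trpc1, Trpc5, Trpc6, Trpm2) and Trpm4 down, against 55.7% of all genes. P23 against P9 called Trpc6 up and Trpm4 down, against 57.3% of all genes. In that step Trpc5 had an LFC of -0.30 and was not called (unadjusted p = 0.0328, adjusted p = 0.0562, edgeR). It became a call in 4 of 23 alternatives, and 61.7% of all genes had an unadjusted p under 0.05. P45 against P23 called none of the 6 in edgeR's test or by DESeq2 or limma voom, against 0.519% of all genes, and Trpc5 (LFC -0.35, unadjusted p = 0.0132) was the 1 of the 6 with an unadjusted p under 0.05, as 9.14% of all genes were. Marker lists also moved from younger to older animals, beside 39% of all genes called higher and 39.6% lower. Higher were 8 of 8 myelin genes, 6 of 7 astrocyte markers (1 lower) and 9 of 12 microglial markers (1 lower). So were 5 of 8 pericyte and smooth muscle markers (2 lower) and 6 of 9 neuronal markers (1 lower). Of 8 deep layer markers 1 was higher and 4 were lower, and of 4 layer II neuron markers 3 were higher and none lower. Endothelial markers were higher for 3 of 6 (1 lower), and choroid plexus and ependyma genes for 2 of 4 tested (1 lower). The remaining marker lists had as many genes called higher as lower. The part of these lists in the channel changes was not tested.

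**Figure D4:**
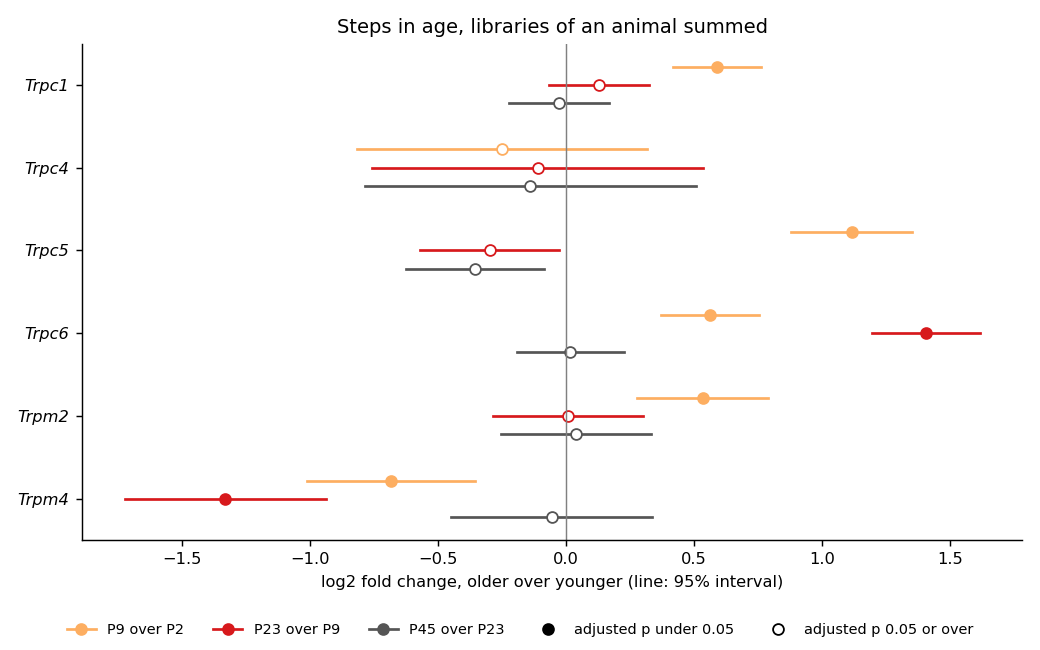
Log2 fold change of each age step (P9 over P2, P23 over P9, P45 over P23) for the 6 genes on the horizontal axis, from animal sums, with lines for 95% intervals and filled points for an adjusted p under 0.05. Trpc6 (0.56 and 1.41) and Trpm4 (-0.68 and -1.33) have filled points in the first 2 steps and no gene has one in the last.

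Across the 16 group means Trpm4 ran against Trpc1 (r = -0.85) and Trpc6 (r = -0.84), and Trpc1 ran with Trpm2 (r = 0.86). Trpc4 and Trpc5 had r = 0.74. These describe 16 means that share libraries and ages, and carry no test. By the same measure the genes most like Trpc1 were Bscl2 (r = 0.98), Abcb9 and Dlat. Trpc5 was most like Galnt18 (r = 0.94), Grm7 and Kcnn1, of which Grm7 encodes a metabotropic glutamate receptor and Kcnn1 a calcium-activated potassium channel. Trpc6 was most like Spag1 (r = 0.97), Tnfrsf9 and Slc20a1, and Trpm2 most like Rab27b (r = 0.94), Cpne9 and Gpr63. Trpm4 was most like Ftl1 (r = 0.99), Lmf2 and Kctd10. Trpc4 had no gene as close, with Epha7 first at r = 0.79, followed by Fdxr and Il23a, and without the 2 doubted libraries Epha7 fell to rank 9. Without them Spag1 fell to rank 48 for Trpc6, Tnfrsf9 to 8 and Slc20a1 to 5, while the first genes of Trpc1, Trpc5 and Trpm2 stayed first.

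Of 22 other TRP genes, 20 were in the files and 15 were tested. The regional difference in LII was called for Trpv6 (LFC 1.94), higher in MEC, and for Trpc7 (LFC -1.35), lower in MEC, with a median LFC of 0.20 over the list. Trpc7 is a close relative of Trpc6, and Trpv6 is a calcium-selective epithelial channel. Trpc7 and Trpv6 had LFCs of -1.33 and 1.52 in LDeep as well. The layer difference was called for 4 higher and 2 lower in MEC, and for 4 higher and 3 lower in LEC, with Trpv4 and Trpm5 among the higher in both (Trpv4 LFC 2.15 and 1.398, Trpm5 LFC 2.69 and 3.15). With age 3 rose and 6 fell, led by Trpv6 (LFC 2.71), Trpm8 (LFC -2.11) and Trpm5 (LFC -2.09). Trpv6, Trpm8, Trpv4 and Trpm5 had medians of 1.30, 1.37, 0.565 and 0.235 CPM, so these LFCs rest on few reads. None of the 15 was called by edgeR in the test of layer by region, where 3 had an unadjusted p under 0.05, beside 12.1% of all genes.

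Of 22 genes for Gq-coupled receptors, Gq subunits, phospholipase C and partners of the calcium stores, all were tested. In LII they were called between regions for 1 higher, Homer2 (LFC 0.47), a scaffold of group I metabotropic receptors, and for 1 lower, Stim1 (LFC -0.16), the calcium sensor of the store. With age 7 rose and 4 fell, led by Itpr1, the main neuronal IP3 receptor (LFC 2.94), the M1 muscarinic receptor Chrm1 (LFC 1.18) and Homer1 (LFC 0.86). Between layers 8 were higher and 3 lower in MEC LII, and 5 were higher and 5 lower in LEC LII, with Itpr3 (LFC 1.12 and 1.52) and Plcb3 (LFC 0.76 and 0.69) higher in both. The layer by region test in edgeR called none of the 22, of which 3 had an unadjusted p under 0.05, beside 12.1% of all genes. In that test the median LFC of the list was 0.08, against 0.02 over all genes. Of 6 genes of ADP-ribose metabolism, which makes and removes the Trpm2 ligand, 1 was called between regions in LII, Parg (LFC 0.14), named after its value was seen. None of the 6 was called by edgeR in the layer by region test, where 1 had an unadjusted p under 0.05, beside 12.1% of all genes.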

How the data were processed

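Total RNA depleted of ribosomal RNA was sequenced as stranded paired-end libraries. The authors trimmed reads with Trimmomatic 0.33, aligned them to Rn6 with STAR 2.4.0 and deposited featureCounts (Subread 1.4.6-p1) counts per RefSeq gene, 1 table per library. Here groups were taken from the labels. Counts of 64 libraries were filtered with filterByExpr (12521 of 17260 genes), TMM-normalised and tested with edgeR 4.0.16 (quasi-likelihood, 16 group means, BH adjustment over all genes, threshold 0.05). Age was tested on the sums of each animal's 4 libraries, since libraries of 1 animal are not independent samples of an age. SE is |LFC| divided by the root of F. log2 CPM used a prior count of 2.

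The study states for its MEC microarray samples that a number within an age marks 1 animal, and this was assumed for the libraries sequenced here. Deviations of same-numbered libraries had a mean correlation of 0.134 (96 pairs, range -0.259 to 0.554, 55 over 0.1), against -0.043 for 300 other pairs. No 2 libraries of a group were identical (100 pairs, smallest chi-square per degree of freedom 3.08). Alternatives used limma 3.58.1, DESeq2 1.42.0, other filters, an animal block and left-out libraries. The layer fit in MEC, with and without the block, and the age fit were tested on simulated counts. Those counts were drawn independently for each library, so that test does not cover likeness between libraries of 1 animal or outlying libraries. The members and lists were chosen with earlier results of these data known, and list genes were named as the 3 called genes with the largest absolute LFC, of which 1 is not reported here. The labels only number the replicates, so p-values measure the spread between these samples.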

Additional observations from a re-analysis of the deposited data

Results flagged for a closer look

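In MEC LII at P2 the library labelled replicate 1 held 239 CPM of Trpc4, while the other 4 libraries of the group held 28.5 to 43.2 CPM. Its gap to the nearest library passed Dixon's 95% critical value. It was the only such library among 72 tested combinations of gene and group of 4 or 5 samples, and chance alone flags about 1 in 20 of them.

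The LII against LDeep difference differed between MEC and LEC by the interaction test for 3 of the 6 genes, beside 1.25% of all genes. The LFC in MEC less that in LEC was 1.26 for Trpc5, 1.08 for Trpc4 and 0.68 for Trpc6. The Trpc4 value includes the library with 239 CPM.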

How the results depend on the processing

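Across up to 26 alternatives, 3115 values of the channel genes stayed on their side of the threshold, 48 became calls and 33 lost a call. The sign changed in 90 values, of which 2 involved a call, Trpc4 from P2 to P9 (0.28 without the 2 MEC libraries of P2 replicate 1, a choice made after seeing the data, against -0.25) and Trpc4 layer by age in MEC (0.44 with the replicate block and those 2 libraries left out, against -0.06). The causes of changed calls were not tested.

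The number of the 6 genes called changed in the cases below, among others. For the region in LII, Trpc1 lost its call in 20 of 26 alternatives and Trpm2 in 8 of 26. Trpc5 became a call for P23 against P9 in 4 of 23 alternatives. Trpc6 became a call for the layer in LEC in 1 of 26. For layer by age in MEC, 1 was called with limma voom, with MEC libraries alone and with the block and 2 libraries left out, against 0. For the layer in LEC at P2, P9, P23 and P45 it was 2 instead of 1 without the 2 libraries, without the 5 libraries farthest from their group means (also chosen after seeing the data), with LEC libraries alone, and with the block and 2 libraries left out. For the layer in MEC it was 1 with MEC libraries alone and 3, with Trpm2, without the 2 or the 5 libraries, with at least 10 counts in every sample and with the replicate block with or without the 2 libraries, against 2. At P2 in MEC it was 1 without the 2 libraries with or without the block (Trpc6) and with limma voom or the replicate block (Trpm4), and 2 without the 5 libraries (Trpc1 and Trpm2), against 0. At P23 in MEC it was 2 under those 3 exclusions and at P45 2 with the block and 2 libraries left out, against 1. Leaving out 1 replicate at a time gave 3 to 5 for the region in LII, 1 to 3 for the layer in MEC, 0 to 1 at P2, 0 to 1 at P9 and 1 to 2 at P23, 1 to 2 at each age in LEC, and 0 to 1 for layer by age in MEC.

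Over all genes, the animal as a replicate block moved the layer by region calls from 156 to 286, region by age in LII from 270 to 424 and in LDeep from 72 to 152. Apart from Trpm2 for the layer in MEC and Trpm4 at P2, the block alone changed no call of the 6. Calls of all genes for P45 against P23 ran from 13 without P23 replicate 1 to 482 with all 64 libraries in 1 fit, against 65. The lowest count behind a value of the 6 genes was 28 reads, for Trpc6 in MEC LDeep at P2.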
